A study of Mus musculus with 4 samples.

Results

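The Schlafen genes are a family that lies in 1 cluster on mouse chromosome 11. Members were taken by name: Slfn1, Slfn2, Slfn3, Slfn4, Slfn5, Slfn8 and Slfn9, 7 genes in all. Of these, 5 (Slfn2, Slfn3, Slfn5, Slfn8 and Slfn9) were found among the 25393 genes of the deposited RNA-seq table, and Slfn1 and Slfn4 were not listed there. Genes without a read in any library were not listed. All 5 members passed the filter on low values (a mean of at least 1), which left 22094 genes. The family was selected on values of the comparison described here, since Slfn8 was near 0 in the KO-labelled libraries. The differences of the members between genotypes are therefore given as a description, without a p-value.

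Schlafen proteins share an N-terminal region and are sorted into short, intermediate and long forms by what follows it. The long forms carry a region that resembles a helicase. The genes are known for their induction by interferon and for roles in quiescence and differentiation of T cells and myeloid cells. Type I interferon acts through its receptor and Jak kinases to build a complex that holds Stat2 and Irf9, which binds a sequence element called ISRE (interferon-stimulated response element). In the brain, microglia, the resident macrophages, and astrocytes both respond to interferon.

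The libraries were made from untreated primary astrocytes of cortex and hippocampus of C57BL/6 pups on postnatal day 1. The WT group held 2 libraries of wild type mice, and the KO group held 2 libraries of mice labelled tet1-/-. The deletion of Tet1, a DNA dioxygenase, was constitutive according to the study's methods. Each isolation pooled 2 mice, the cells grew for about 7 days and were shaken at 260 rpm, and RNA was taken 24 h later. The study asked how loss of Tet1 alters transcription in astrocytes. The study calls its repeats biological, but the labels do not say that libraries of a genotype came from separate cultures, so tests across all genes may measure only the spread between these libraries. With 2 libraries against 2, a two-sided exact permutation test of a single value cannot go below 0.33.

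Tet1 itself was read first, as a check of the labels. Values are normalized counts, which are reads divided by a size factor of the library and not by gene length. Tet1 had 266 and 121 normalized counts in WT, against 173 and 463 in the KO-labelled libraries (log2 fold change 0.66, SE 0.65). Tet1 mRNA was thus not lower in the KO-labelled libraries. The study itself reports that Tet1 mRNA could hardly be detected in its KO astrocytes, which differs from these libraries. That measurement and the study's other assays were not analysed here. Which part of the gene was deleted is not given in the sources used here. The genotype is named by its label throughout. Between 18749610 and 22673555 reads fell on genes in each library, 1 read was worth 0.901 to 1.07 normalized counts, and the detection floor of 3 reads was 2.70 to 3.21 normalized counts. Of 10 astrocyte markers, all were in the table. Of these, 8 were lower in the KO-labelled libraries (median log2 fold change -0.78) and DESeq2 called 0. Their summed level was 165% of the WT mean in the first KO-labelled library and 29.5% in the second, and without Gfap, which carried most of the sum in the first, 88.0% and 38.6%. In the second, Gjb6, an astrocyte connexin, had 0 reads. The second KO-labelled library also had the highest sum of 10 proliferation genes (462% of the WT mean, against 259% in the first). Sex-linked genes differed too. Xist, the RNA that silences an X chromosome in females, had 8.54 and 0.920 normalized counts in WT, against 2896 and 13367 in the KO-labelled libraries. The Y-linked genes Ddx3y, Eif2s3y, Kdm5d and Uty had 0 reads in the first KO-labelled library, 117 to 314 normalized counts in the second and 178 to 1484 in WT. The KO-labelled libraries therefore stood apart from each other as well as from WT, and in every comparison that follows the sex of the pups and the labelled genotype cannot be told apart.

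Sequence before RefSeq gene starts is shown because the family is known for interferon induction. Sequences are RefSeq promoters on GRCm38.p6, 250 bases before to 50 after each start, and all 7 members matched, Slfn8 with 2 starts. The ISRE core was searched as GAAANNGAAA on both strands, where it reads TTTCNNTTTC on the other strand. It was present for Slfn5, Slfn8 and Slfn9 and was not found in the windows of Slfn1, Slfn2, Slfn3 and Slfn4. The last 120 bases before the start of Slfn8 (chr11:83020811-83020930, minus strand), Slfn9 (chr11:82991831-82991950, minus strand) and Slfn2 (chr11:83064992-83065111, plus strand) are shown to compare a matched pair with a member that lacks the motif. For Slfn5 the 30 bases around the match are shown (chr11:82951937-82951966, plus strand). They lie before the RefSeq start used but inside the longer Slfn5 gene of the table, between exons of another GENCODE M21 transcript. Each runs 5′ to 3′ along the strand of its gene, and capitals mark the match.
Slfn8: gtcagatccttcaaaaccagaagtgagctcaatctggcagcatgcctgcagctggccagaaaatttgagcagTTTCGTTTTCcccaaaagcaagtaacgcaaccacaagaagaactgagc
Slfn9: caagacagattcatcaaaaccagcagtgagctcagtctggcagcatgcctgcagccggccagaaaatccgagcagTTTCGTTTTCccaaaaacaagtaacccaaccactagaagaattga
Slfn2: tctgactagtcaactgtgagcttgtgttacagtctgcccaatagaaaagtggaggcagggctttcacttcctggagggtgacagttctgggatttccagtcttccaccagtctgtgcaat
Slfn5: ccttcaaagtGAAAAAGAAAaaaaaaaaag

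In Slfn8 the match began 48 bases before the start at 83020810 (136 before the second start at 83020722), and in Slfn9 45 bases before the start at 82991830. The matched bases were the same in both genes, TTTCGTTTTC. Over their 300 bases the promoters of Slfn8 and Slfn9 were 82% identical (59.7% with the second start of Slfn8), while those of the other pairs of members were 43.7% to 53% identical. The Slfn5 match lay 155 bases before its start at 82952102 and read GAAAAAGAAA on the strand of the gene. The core was held by 3.44% of all 32851 promoters, by 3.11% of those of tested genes, by 65.4% (17 of 26) of those of the interferon target genes listed further on, and by 4 of the 8 windows of the members. Both windows of Slfn8 hold the same site, so by gene it was 3 of 7 members. By gene it was also 16 of 23 targets and 1079 of all 27025 genes. The GAS element (interferon gamma-activated site), searched as TTCNNNGAA, was in 0 of the 8 windows against 8.30% of all promoters. A match describes letters in a window and was not tested for binding.

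Slfn8, a long form (ENSMUSG00000035208, mm10 chr11:83002158-83020810, minus strand), had 297 and 159 normalized counts in WT. It had 1.07 and 0 in the KO-labelled libraries, from 1 read and 0 reads. Both KO-labelled libraries lay at or below the floor and both WT libraries far above it, with no overlap. The 2 WT libraries themselves differed, with exact Poisson 95% intervals of 263 to 334 and 136 to 185 (all such intervals cover counting error only). The log2 fold change of labelled KO against WT was -7.25 (SE 0.76) on the log2(normalized count + 1) scale, which understates the change of genes near 0. By reads, the WT rate was 455 times the KO rate, with an exact interval of 81.3 to 18020. Of the 22094 genes tested, 6 had a fold change this low or lower, Slfn8 included. Among 11250 genes with at least 100 normalized counts in both WT libraries, Slfn8 was the 1 gene with at most 1 read in each KO-labelled library, which restates the value it was selected on. Allowing up to 3 reads added 1 more, Serpina3i, a serine protease inhibitor gene on chromosome 12.

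Slfn9, a long form and the closest relative of Slfn8 by promoter sequence (ENSMUSG00000069793, chr11:82978390-82991830, minus strand), had 469 and 218 normalized counts in WT. In the KO-labelled libraries it had 17.1 and 133. The groups did not overlap, but the KO-labelled libraries were further apart (intervals 9.79 to 27.8 and 113 to 157) than the WT libraries. The log2 fold change was -2.70 (SE 1.02), and it was -4.15 without the second KO-labelled library and -1.26 without the first. Slfn9 thus had reads well above the floor in both KO-labelled libraries, where Slfn8 had almost none.

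Slfn5, a long form with a nuclear location (ENSMUSG00000054404, chr11:82951349-82964840, plus strand), had 16.0 and 31.3 normalized counts in WT. It had 0 and 0.901 in the KO-labelled libraries, so both were under the floor. The log2 fold change was -4.09 (SE 0.81), and the read rate in WT was 49.5 times that in the KO-labelled libraries, with an exact interval of 8.47 to 1993 from 1 read. Slfn5 was a low gene in WT too, and its fitted fold change depended on the pseudocount (-6.15 with 0.1 in place of 1).

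Slfn2, a short form required for the quiescence of T cells (ENSMUSG00000072620, chr11:83065112-83070678, plus strand), had 198 and 270 normalized counts in WT. It had 1.07 and 47.8 in the KO-labelled libraries. The first KO-labelled library held 1 read of Slfn2 and the second 53 reads, so within the labelled genotype the level ranged from under the floor to well above it. The log2 fold change was -4.53 (SE 1.49), -6.81 without the second KO-labelled library and -2.25 without the first.

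Slfn3, an intermediate form (ENSMUSG00000018986, chr11:83191330-83215154, plus strand), was barely detected. It had 1.07 and 3.68 normalized counts in WT, against 2.14 and 3.61 in the KO-labelled libraries, from 1 to 4 reads each. The groups overlapped (log2 fold change 0.29, SE 0.82), and no difference was detectable at this depth. Leaving out the first WT library turned the sign to -0.30.

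**Figure D1:**
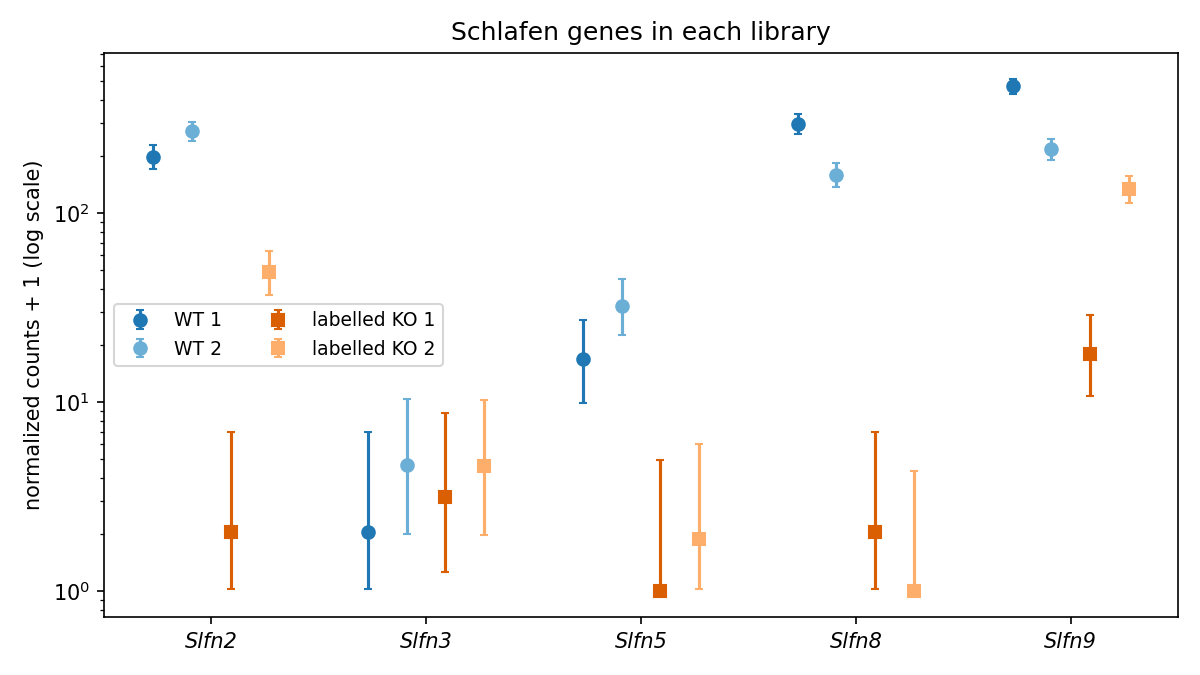
Normalized counts + 1 (log axis) of the 5 Schlafen genes in each of the 4 libraries. Points are single libraries and bars are exact Poisson 95% intervals for counting error. Slfn8 and Slfn5 sit at the bottom in both KO-labelled libraries, while Slfn2 and Slfn9 were at 47.8 and 133 normalized counts in the second KO-labelled library.

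With an adjusted p under 0.05, limma called 0 of the 5 members and 0.0% of all genes (lowest adjusted p 0.0777), and 3032 genes had an unadjusted p under 0.05. edgeR on the recovered reads called 0 members and 0.0% of all genes, with 2733 genes at an unadjusted p under 0.05. DESeq2 called Slfn5 and Slfn8 lower, 2 of 5, against 3.68% of all genes. By limma's unadjusted p under 0.05, 4 of 5 were lower (Slfn2, Slfn5, Slfn8 and Slfn9), against 9.18% of all genes. In the same 4, neither KO-labelled library reached the lower of the WT values, as did 25.4% of all genes. Because the family was selected on this comparison, nothing is read from these counts. Across all genes the median log2 fold change was -0.07 and 53.7% of genes were lower.

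Levels of different genes were compared as FPKM, per gene length, computed from the recovered reads. In WT, Slfn2 was highest (6.88 ± 1.29 FPKM, SD, n = 2), followed by Slfn9 (2.84 ± 1.54), Slfn8 (2.74 ± 1.24), Slfn5 (0.182 ± 0.0782) and Slfn3 (0.0337 ± 0.0255). Slfn9 and Slfn8 did not differ beyond their spread, since their libraries overlapped. The other neighbours in this order did not overlap between libraries. In the first KO-labelled library the highest level was that of Slfn9 at 0.130 FPKM, and each other member was at 0.029 FPKM or less. In the second, Slfn2 was at 1.42, Slfn9 at 1.11, Slfn3 at 0.0523, Slfn5 at 0.00706 and Slfn8 at 0 FPKM. Levels that rest on 3 reads or fewer have no order. In the first KO-labelled library this holds for every member except Slfn9, and in the second for Slfn5 and Slfn8.

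The summed normalized counts of the members were 982 and 682 in WT, against 21.4 and 186 in the KO-labelled libraries. The group means were 832 ± 212 and 104 ± 116 (SD, n = 2), a log2 ratio of -3.01. Without the second KO-labelled library the ratio was -5.28, so its size rested on that library.

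The make-up of the Schlafen reads also differed between libraries. Slfn9 gave 47.8% and 31.9% of them in WT (of 920 and 742 reads) and 80.0% and 71.8% in the KO-labelled libraries (of 20 and 206 reads). Slfn8 gave 30.2% and 23.3% in WT, 5.0% in the first KO-labelled library and 0 of 206 reads in the second, with an exact 95% binomial interval of 0 to 1.77%. Slfn2 gave 20.2% and 39.6% in WT, 5.0% in the first KO-labelled library and 25.7% in the second (interval 19.9% to 32.3%). In the second KO-labelled library the share of Slfn2 lay between those of the WT libraries. That Slfn8 gave almost no reads there is what the family was selected on. The shares are parts of the same total, so those of Slfn9 and Slfn2 depend in part on it. Nothing further is read from them.

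**Figure D2:**
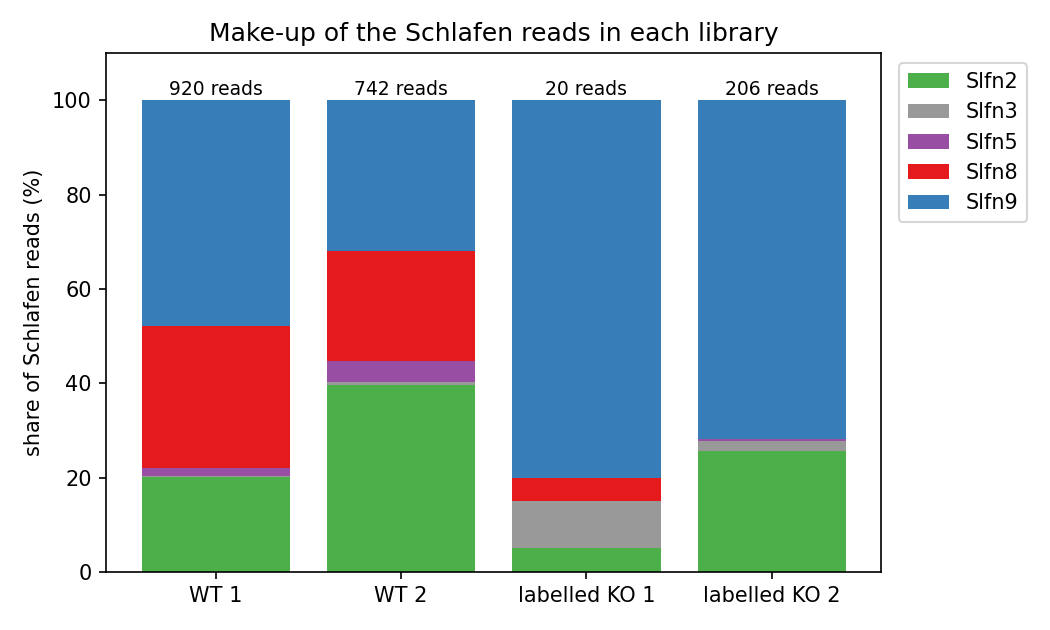
Share of all Schlafen reads (%, linear axis) given by each member in the 4 libraries, with the number of Schlafen reads above each bar. The band of Slfn8 is 30.2% and 23.3% in WT, rests on 1 read in the first KO-labelled library and is absent in the second.

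The pair Slfn8 and Slfn9 was compared within each library, since a ratio within a library does not depend on its scaling. Slfn8 gave 38.7% of the reads of the pair in the first WT library (interval 35.1% to 42.4%, 718 reads) and 42.2% in the second (37.4% to 47.1%, 410 reads). The intervals of these 2 shares overlapped. In the first KO-labelled library the share was 5.88% (0.149% to 28.7%, 17 reads), and in the second it was 0 of 148 reads (0 to 2.46%, and a floor of 3 reads would be 2.03%). The low shares follow from the reads of Slfn8 that the family was selected on, and nothing further is read from them. Part of the reads of these genes could be placed on either: of the 50-base words in the GENCODE M21 transcripts of Slfn8, 14.6% were shared with another gene (9.30% with Slfn9, 10.1% with the pseudogene Slfn10-ps), and 3.38% of its 100-base words were. For Slfn9 these shares were 11.9% and 3.71%. How the authors counted reads with several placements is not given in the sources used here, so single reads of Slfn8 or Slfn9 are uncertain. Slfn10-ps itself (ENSMUSG00000072621) had 10.7 and 7.36 normalized counts in WT, against 0 and 6.31 in the KO-labelled libraries. Antisense genes overlap Slfn2 (Gm20234, at most 3.20 normalized counts) and Slfn5 (Slfn5os, not listed), and reads of a gene and its antisense partner could not be told apart where counting ignored strand. Slfnl1, a gene on chromosome 4 that shares only part of the name, had 4.51 normalized counts or fewer in every library.

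The 5 members span 263.806 kb. Within 500 kb on either side and between them, the table held 34 other genes, of which 28 were tested. Of these, 20 were lower and 8 higher in the KO-labelled libraries (median log2 fold change -0.76, against -0.07 for all genes). Without overlap, 16 were lower, against 25.4% of all genes, and 5 were higher, a share not counted over all genes. DESeq2 called 6, all of them lower, against 3.68% of all genes. The 8 tested genes before Slfn5 had a median of -0.21. They included Rffl, a ubiquitin ligase gene, at 664 and 720 normalized counts in WT, against 157 and 92.8 in the KO-labelled libraries. The 4 tested genes between members (1190001M18Rik, Gm11425, Slfn10-ps and Gm20234) had at most 10.7 normalized counts in any library and a median of -0.99.

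Past Slfn3, 16 tested genes had a median of -1.26, among them chemokine genes of the Ccl cluster. All 5 tested ones (Ccl3, Ccl4, Ccl5, Ccl6 and Ccl9) were lower without overlap, against 25.4% of all genes, with a median of -4.11. DESeq2 called 3 lower, against 3.68% of all genes. Ccl3, a macrophage chemokine that attracts leukocytes, had 91.8 and 347 normalized counts in WT, against 1.07 and 33.3 in the KO-labelled libraries. Like Slfn2, it held 1 read in the first KO-labelled library and well over the floor in the second. Wfdc17, a gene of macrophages, had 164 and 230 in WT, against 0 and 6.31 in the KO-labelled libraries. Rasl10b, a gene of a small GTPase, had 1535 and 1401 in WT, against 600 and 328 in the KO-labelled libraries (-1.72, SE 0.39). Other genes of the same stretch with high counts differed little, such as Ap2b1, an adaptor of clathrin (5241 and 6160 in WT, 6949 and 6708 in the KO-labelled libraries; log2 fold change 0.26, SE 0.29), and Taf15, an RNA-binding protein (0.02, SE 0.27). Ap2b1 and Taf15 lay between the last member and the first Ccl gene, not among the members. The only tested genes between members had low counts, as given above.

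**Figure D3:**
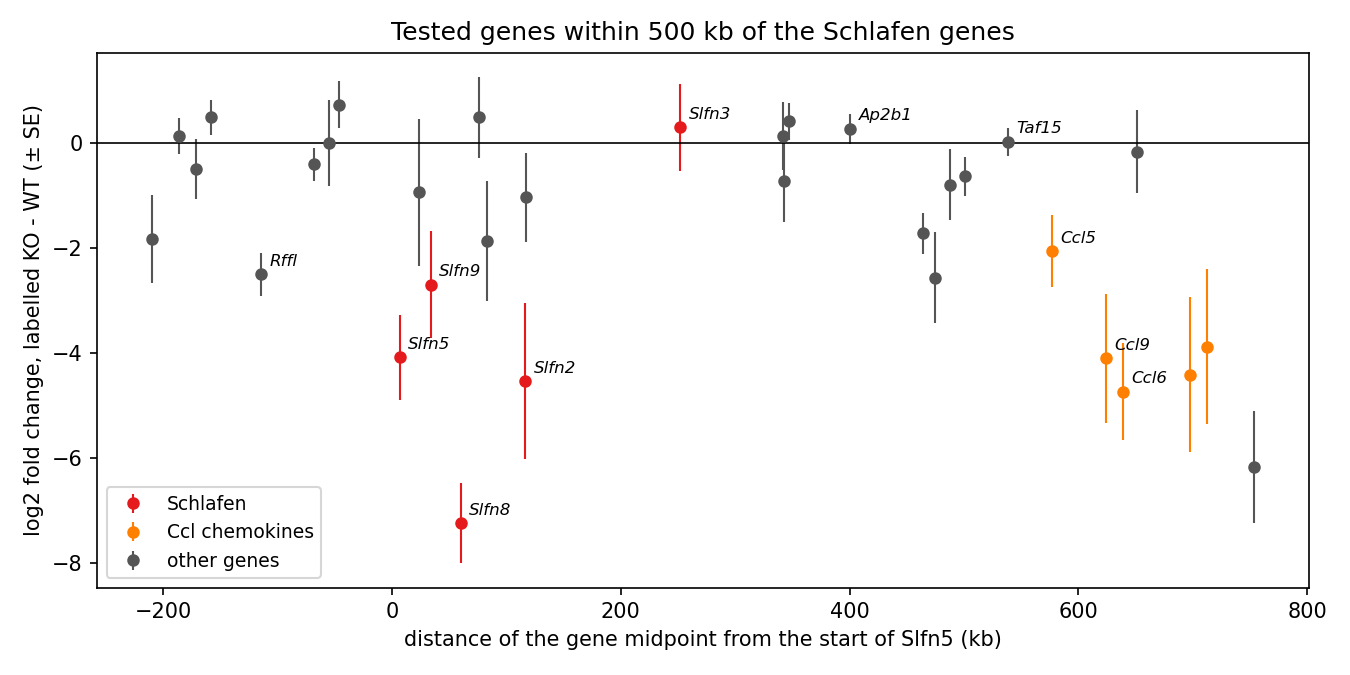
Log2 fold change of labelled KO against WT (± SE, from limma) of each tested gene within 500 kb of the Schlafen genes, plotted against the distance of its midpoint from the start of Slfn5 in kb. Red points are Schlafen members, orange points are Ccl chemokines and grey points are other genes. Slfn8 is lowest at -7.25, and Ap2b1 and Taf15 lie near 0.

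The other genes of the interferon pathway were read from a list of 53 genes, of which 45 were tested. None of the 8 ligand genes on the list (Ifnb1, Ifna2, Ifna4, Ifna5, Ifne, Ifng, Ifnl2 and Ifnl3) was listed in the table. Of the 45, 41 were lower and 4 higher in the KO-labelled libraries, with a median log2 fold change of -3.22. limma and edgeR called 0 of them. At limma's unadjusted p under 0.05, 37 were lower, against 9.18% of all genes. DESeq2 called 31 lower, against 3.68% of all genes.

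Among the receptors, Ifnar1 and Ifngr2 were higher by 0.29 and 0.03 on the log2 scale (SE 0.29 and 0.38), and Ifnar2 and Ifngr1 had log2 fold changes of -1.05 and -1.11 (SE 0.30 and 0.29). The kinases that sit on the receptors had log2 fold changes of 0.33 for Jak1, -0.67 for Jak2 and 0.07 for Tyk2. DESeq2 called 0 of these 7 genes. Of the transcription factors, DESeq2 called Stat2, Irf9, Irf7 and Irf1 lower. Stat2 had 2503 and 2725 normalized counts in WT, against 358 and 323 in the KO-labelled libraries (-2.94, SE 0.28). Irf7, which amplifies the response, had 1576 and 1103 in WT, against 35.3 and 20.7 in the KO-labelled libraries (-5.55, SE 0.46). Stat2 and Irf7 differed less between the 2 KO-labelled libraries than Slfn2 and Slfn9 did. Irf9 and Irf1 had fold changes of -2.11 and -1.25. Of the genes that restrain the response, DESeq2 called Usp18 lower (-4.02, SE 0.40) and did not call Socs1 (-1.05) or Socs3 (-1.19).

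All 30 interferon target genes had a negative log2 fold change, from -6.56 to -0.59 with a median of -4.26. Of these, 29 were lower without overlap (Ifit2 overlapped), against 25.4% of all genes. DESeq2 called 25 lower, against 3.68% of all genes. The 4 targets with the highest FPKM were Bst2, Ifit3, Isg15 and Ifit3b. Bst2, which tethers viruses to the cell surface, had 5870 and 7966 normalized counts in WT, against 647 and 830 in the KO-labelled libraries. Isg15, a modifier related to ubiquitin, had 1944 and 2427 in WT, against 55.7 and 61.3 in the KO-labelled libraries. Ifit3 and Ifit3b, which belong to a family that recognises viral RNA, had log2 fold changes of -4.46 and -5.11. Read as percent of the WT mean, the summed targets were at 9.54% and 13.3% in the KO-labelled libraries, and the summed Schlafen members at 2.57% and 22.3%. In both sums the second KO-labelled library was the higher one, with a wider gap for the Schlafen genes.

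All 18 of 18 markers of microglia and macrophages were lower in the KO-labelled libraries (median -3.29). Of these, 17 were lower without overlap (Tmem119 overlapped), against 25.4% of all genes. DESeq2 called 13 lower, against 3.68% of all genes. Their summed normalized counts were 3002 and 5277 in WT, against 1142 and 699 in the KO-labelled libraries. Within each genotype, this sum and that of the Schlafen genes ran in opposite orders between libraries. P2ry12, a marker of microglia at 6.40 normalized counts or fewer, had 0 reads in the first KO-labelled library, and no other marker was at 0 in any library. In RNA of a whole culture, fewer cells of a type and less RNA per cell cannot be told apart. Of 11 T and B cell markers, 4 were in the table (summed at 20.7 to 86.4 normalized counts in each library) and Cd3d, Cd3e, Cd3g and Cd4 were not listed. Of 5 neutrophil markers, S100a8 was in the table, at 30.3 normalized counts or fewer. The 10 proliferation genes were all higher in the KO-labelled libraries (median 2.89). At limma's unadjusted p under 0.05, 10 were higher, against 1004 of the 22094 genes tested. DESeq2 called 6 of them higher. Of the 22094 genes tested, it called 1104 in either direction, 814 of them lower. The part of these cells and of proliferation in the differences of the Schlafen genes was not tested.

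In WT, the microglial sum was lower in the first library than in the second, as were Slfn2, Slfn5 and Slfn3, while Slfn8 and Slfn9 were higher in the first. In the KO-labelled libraries, Slfn2 and Slfn9 were higher in the second, Slfn3, Slfn5 and Slfn8 rested on 4 reads or fewer in each, and 12 of the 18 microglial markers were lower in the second. Of all genes tested, 52.3% were higher in the second. The 6 markers higher in the second were Csf1r, P2ry12, Itgam, Ptprc, Cd68 and Spi1. Ptprc, the leukocyte antigen CD45, had 44.8 and 95.6 normalized counts in WT, against 1.07 and 34.3 in the KO-labelled libraries, a pattern like that of Slfn2. C1qa, a complement gene of microglia, had the other order in the KO-labelled libraries, with 33.2 in the first and 5.41 in the second.

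Set against the summed microglial markers, per 1000 of their normalized counts, Slfn2 was at 66.1 and 51.2 in WT, against at 0.937 and 68.3 in the KO-labelled libraries. Slfn9 was at 156 and 41.3 in WT, against at 15.0 and 191. Slfn8 was at 98.8 and 30.1 in WT, against at 0.937 and 0. Slfn5 was at 5.33 and 5.92 in WT and at 0 and 1.29. On this scale Slfn2 and Slfn9 in the second KO-labelled library lay above both WT libraries. Slfn8 and Slfn5, with 1 read or none in each KO-labelled library, are near 0 there on any scale, so nothing is read from them.

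**Figure D4:**
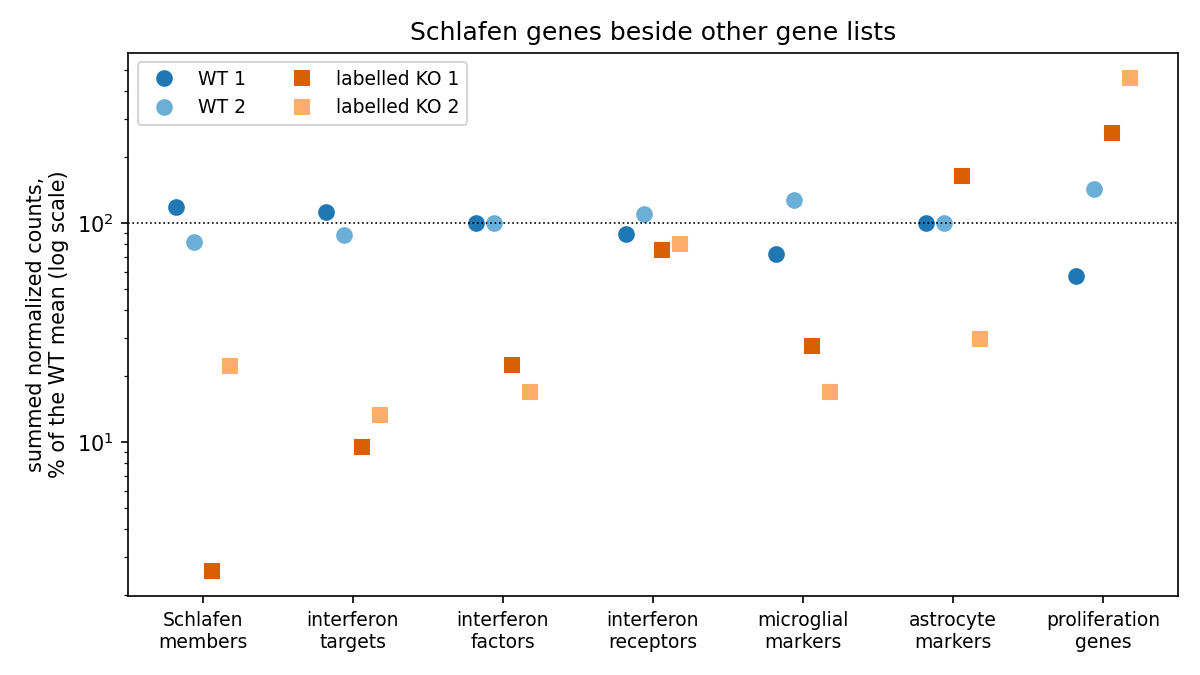
Summed normalized counts of 7 gene lists in each library, as percent of the WT mean (log axis, dotted line at 100%). Each point is 1 library. The Schlafen members lie at 2.57% and 22.3% in the KO-labelled libraries, the interferon targets at 9.54% and 13.3%, the interferon receptors at 75.7% and 80.4%, and the proliferation genes above 100%.

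The genes whose pattern over the 4 libraries was most like each member were found by the distance between log2 profiles centred on their own mean, among 15978 genes with a mean of at least 10. For Slfn8 they were Chil1 (distance 1.06), Ms4a4d (1.13), Ces1d (1.43), Snhg11 (1.49) and Lbp (1.50). Chil1, a secreted chitinase-like protein made by astrocytes and macrophages, had 142981 and 49704 normalized counts in WT, against 1649 and 702 in the KO-labelled libraries. Ms4a4d had 99.2 and 86.4 in WT, against 0 in both KO-labelled libraries. For Slfn2 the nearest genes were Mgst2 (0.65), Tnfaip2 (0.84) and Casp4 (0.89), an inflammatory caspase with 433 and 465 normalized counts in WT, against 1.07 and 55.9 in the KO-labelled libraries. For Slfn5 they were Calhm2 (0.27), Tlr13 (0.47) and Ugt1a7c (0.49). For Slfn9 they were Gm17954 (0.25), Gm37776 (0.27) and Gm3257 (0.29), all of them low. Members were left out of these lists. The distances between members ran from 2.43 (Slfn9 and Slfn5) to 7.76 (Slfn8 and Slfn3). Slfn8 and Slfn9 were 5.33 apart. Distances to Slfn8 include the values that the family was selected on, and those to Slfn3 and Slfn5 rest in part on few reads. Nothing is therefore read from these distances about a shared pattern of the members.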

How the data were processed

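RNA-seq of 4 libraries was used, grouped by the genotype in the labels. Paired-end Illumina reads had been filtered and then mapped by the authors to mm10, the build that the submitters' processing notes name. The aligner, the counting program and the annotation are not given in the sources used here. The deposited signal per gene and library is a read count divided by a size factor (0.934 to 1.11), although its name speaks of FPKM. In each library 100% of values were whole multiples of 1 read (tolerance 0.01), so reads were recovered. The authors also deposited genotype means, log2 fold changes and p-values of their own comparison, which were not used, and other columns of gene length and position. The planned design allowed for FPKM, and its test was kept.

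limma 3.58.1 (variance trend, R 4.3.3) was run on log2(normalized count + 1) over genes whose mean reached 1, and p-values were adjusted by Benjamini-Hochberg. The recovered reads went into edgeR 4.0.16 (quasi-likelihood) and DESeq2 1.42.0. The scripts were tested on simulated data. Neither the members nor the gene lists were chosen blind: earlier results of these data were known. Named genes are the members, other Slfn names, genes within 500 kb, interferon and marker lists (of the targets, the 4 with the highest FPKM), and the 5 (Slfn8) or 3 genes nearest in pattern. Sex-linked genes, Serpina3i, Ptprc, C1qa and the neighbours given with values were singled out after their values were seen. Alternatives were a pseudocount of 0.1, a minimum mean of 5 or none, equal sums, TMM, quantile normalization, no variance trend, edgeR, DESeq2, a replicate block and fits without 1 library each. The study's text speaks of 3 biological repeats per genotype, and 2 per genotype were analysed here. A transcription factor of the interferon list is not reported here.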

Additional observations from a re-analysis of the deposited data

How the results depend on the processing

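The count of genes with an adjusted p under 0.05 was 0 under limma and under each alternative except DESeq2, which called 1104 genes, 2 of the 5 Schlafen members and 31 of the 45 interferon genes (the cause was not tested). DESeq2 gave no adjusted p for 5569 genes, Slfn3 included. Leaving out each library gave 0 calls in all 3 counts. The log2 ratio of the summed family ranged from -5.28 (without the second library labelled KO) to -2.16 when each library was left out, and from -3.19 to -2.66 under the other alternatives. Slfn2, Slfn5, Slfn8 and Slfn9 kept a negative fold change under all 14 alternatives. Their ranges were -6.81 to -2.25 for Slfn2, -6.15 to -3.62 for Slfn5, -9.31 to -6.72 for Slfn8 and -4.15 to -1.26 for Slfn9. Slfn3 reversed to -0.30 without the first WT library (0.88 without the second), and a minimum mean of 5 left it out. The median over all genes was -0.07, and was 0.08 under quantile normalization and -0.11 under equal sums. With the replicate block, 0 genes, 0 members and 0 interferon genes passed, and 2583 genes had an unadjusted p below 0.05. Deviations of libraries with the same number correlated at -0.08 over 22094 genes, so the numbers were not taken as a pairing. Depth limits Slfn3, Slfn5 and the libraries labelled KO, where single reads decide the values.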
